A study of Arabidopsis thaliana with 18 samples.

Results

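The genes described here form the core of ethylene perception and signalling in Arabidopsis thaliana. They are the receptors ETR1, ERS1, EIN4 and ETR2, the protein kinase CTR1, the membrane protein EIN2, the transcription factors EIN3 and EIL1, and the F-box proteins EBF1 and EBF2. These 10 genes were chosen by their identifiers from 32436 genes and loci with read counts. No measured value entered that rule, but earlier results of these data were known when the genes were chosen. Of the 10, 9 had counts of their own. ETR1 (AT1G66340) was counted only inside a locus that merges it with AT1G66345, so all values given for ETR1 are values of that locus and reads of the 2 genes could not be separated. The 10 genes held 41 annotated splice junctions and 57 exon bins, which are the stretches into which the annotation divides the exons of a gene. No junction outside the annotation was listed for any of them, whereas such a junction was listed for 1769 (16.4%) of the 10810 genes tested for their level.

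Ethylene is a gaseous plant hormone that is perceived by receptors in the membrane of the endoplasmic reticulum. Receptors without ethylene keep CTR1 active, and CTR1 phosphorylates EIN2 and thereby holds it inactive. EBF1 and EBF2 direct the transcription factors EIN3 and EIL1 to degradation. When ethylene binds, a part of EIN2 is released that restrains EBF1 and EBF2, and EIN3 and EIL1 accumulate and switch on ethylene-responsive genes.

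Whole seedlings of 6 genotypes were sequenced with PacBio Iso-Seq, a method that reads long stretches of cDNA in 1 piece, in 3 biological replicates per genotype. The genotypes were xct-2 with the transgene labelled XCT::XCT, the mutant prl1-2, the mutant xct-2, xct-1 with the transgene labelled XCT::SpXAP5, the mutant xct-1, and the wild type Col-0. The authors' deposited comparison of the XCT::XCT line with Col-0 names that line xct-2_XCT-YFP-HA. XCT is XAP5 CIRCADIAN TIMEKEEPER and PRL1 belongs to a complex associated with the spliceosome. The expression of the transgenes themselves was not examined, and the labels do not say how many independent lines each transgenic genotype comprised. All groups grew alike, on agar medium at 22 °C under continuous light (55 µmol m-2 s-1) following 3 days of cold stratification. Harvests of about 60 mg were made at 2-h intervals across 24 h on day 11 and combined, while another label gives 10 days as the age. The values are thus averages over a day in seedlings to which no ethylene treatment is labelled.

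Each library held 459150 to 1046273 gene reads, with prl1-2 replicate 1 the shallowest. Junction reads per gene read were fewest in xct-1 replicate 2, at 7.05, and most numerous in Col-0 replicate 3, at 11.5. All 3 green-shoot markers (RBCS1A, LHCB1.3 and LHCA1) and 2 of 3 root markers (PYK10 and PIN2) passed the filter on low counts, while the root marker TIP2;3 had 27 reads in all. The seed marker OLEO1 had 0 reads and the seed marker CRA1 had 17. Replicates are described as independent by the labels, and the most alike pair within a genotype still differed, with a ratio of chi-square to degrees of freedom of 1.54 over genes.

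The amounts of transcript of the 10 genes did not change detectably in any genotype. None of the 10 was called at an adjusted p under 0.05 (edgeR quasi-likelihood test, all genes tested) in xct-2, xct-1, prl1-2 or xct-2 XCT::XCT against Col-0. Over all 10810 genes the called share in these comparisons was 0.0555%, 0.0%, 0.241% and 0.0185%. None was called in the XCT::XCT line against xct-2 or in the XCT::SpXAP5 line against xct-1 either, where 0.037% and 0.0% of all genes were called. The same held in xct-2 against xct-1 and in prl1-2 against xct-2, with 0.0% and 0.805% of all genes called. Of the 80 unadjusted p-values of these 8 comparisons 1 was under 0.05, that of ERS1 in prl1-2 against Col-0. With DESeq2 also, 0 of the 10 genes were called in each comparison. In whole seedlings fewer cells of a type and less RNA per cell cannot be told apart.

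**Figure D1:**
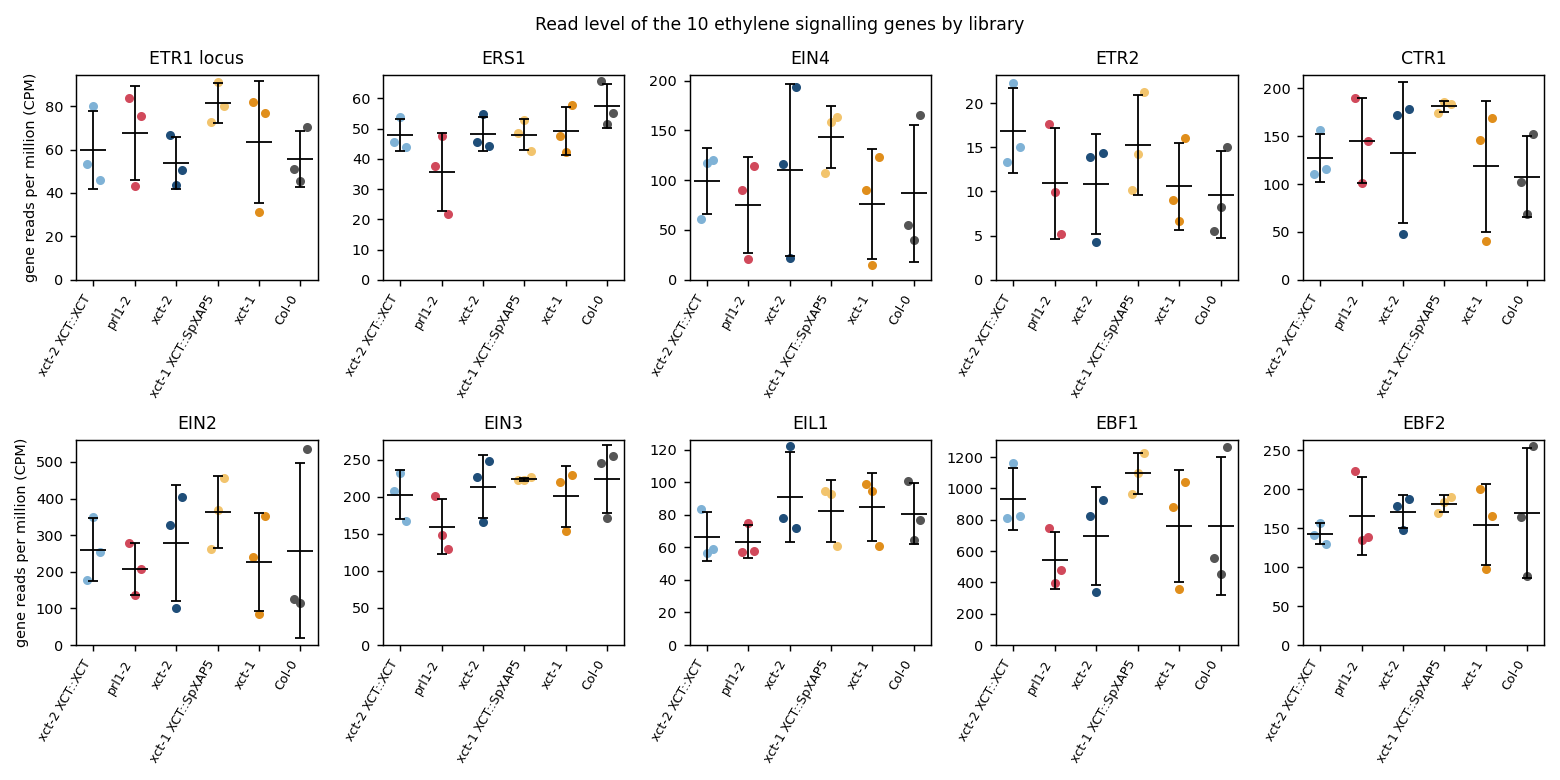
CPM (gene reads scaled to a common library size with edgeR's TMM factors) of each of the 10 genes, 1 panel per gene, with 1 point per library and the mean and SD of the 3 libraries of a genotype. Replicates spread widely for EIN4, EIN2 and EBF1, and ERS1 is the gene whose prl1-2 points, 21.8 to 47.4 CPM, all lie below its Col-0 points, 51.5 to 65.7 CPM.

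Among the receptors, ERS1 (AT2G40940), which like ETR1 belongs to the subfamily with a conserved histidine kinase domain, had 37.5, 47.4 and 21.8 CPM in prl1-2, against 65.7, 51.5 and 55.3 CPM in Col-0. The prl1-2 libraries all lay below the Col-0 libraries. The log2 change in prl1-2 was -0.69 with a standard error of 0.30, and with an unadjusted p of 0.0333 and an adjusted p of 0.771 (edgeR) it was not called. In the other 4 genotypes ERS1 averaged 47.8 to 49.1 CPM, with overlapping libraries. The ETR1 locus had 83.9, 43.0 and 75.7 CPM in prl1-2, 66.9, 43.7 and 50.8 CPM in xct-2 and 50.9, 45.7 and 70.4 CPM in Col-0, and these ranges overlapped.

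EIN4 (AT3G04580), a receptor of the subfamily that lacks a complete histidine kinase domain, was spread widely within genotypes. It had 116, 21.4 and 194 CPM in xct-2, 89.8, 14.8 and 124 CPM in xct-1 and 54.6, 39.8 and 166 CPM in Col-0. In each of these 3 genotypes replicate 2 was the lowest library, and it was also the library of its genotype with the fewest junction reads per gene read, 7.53 in xct-2, 7.05 in xct-1 and 7.93 in Col-0. ETR2 (AT3G23150), of the same subfamily, was sparsely covered, with 4 to 17 reads per library and 174 in all. Its log2 change was 0.85 (SE 0.55, edgeR adjusted p = 1.0) in xct-2 XCT::XCT against Col-0, the most positive value of the 10 genes in that comparison, with 13.4, 22.3 and 15 CPM in xct-2 XCT::XCT and 5.55, 8.20 and 15.1 CPM in Col-0. The 2 genotypes overlapped.

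Downstream of the receptors the same within-genotype spread was seen. EIN2 (AT5G03280), the membrane protein that carries the signal towards the nucleus, had 327, 100 and 405 CPM in xct-2, 240, 85.8 and 353 CPM in xct-1 and 125, 115 and 534 CPM in Col-0. CTR1 (AT5G03730), the kinase that represses the pathway, had 190, 101 and 145 CPM in prl1-2, against 102, 69.1 and 152 CPM in Col-0. Replicate 2 was again the lowest library in these genotypes. With junction reads per gene read as a covariate none of the 10 genes was called. With this covariate and the replicate number as a block together, CTR1 in prl1-2 against Col-0 was the 1 value called, with a log2 change of 0.68 and an adjusted p of 0.0142 (edgeR), against 0.43 (SE 0.51) without them.

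EIN3 (AT3G20770) and EIL1 (AT2G27050), the pair of transcription factors at the end of the pathway, had lower means in prl1-2 than in any other genotype. EIN3 had 201, 149 and 130 CPM in prl1-2, against 245, 171 and 255 CPM in Col-0, a log2 change of -0.49 (SE 0.34) that was not called (edgeR adjusted p = 1.0). EIL1 had 57.4, 75.0 and 57.7 CPM in prl1-2 and 101, 64.4 and 77.1 CPM in Col-0, and its log2 change of -0.35 (SE 0.33) was not called either. For both genes the prl1-2 and Col-0 libraries overlapped.

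EBF1 (AT2G25490) had 744, 397 and 478 CPM in prl1-2, against 558, 456 and 1263 CPM in Col-0. The log2 change was -0.49 (SE 0.52) and was not called. EBF2 (AT5G25350), the other F-box gene of this pathway, had 223, 135 and 139 CPM in prl1-2 and 164, 89.0 and 255 CPM in Col-0, with a log2 change of -0.03 (SE 0.39). The libraries of the 2 genotypes overlapped for each gene.

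Across the 6 genotypes the mean level was highest in xct-1 XCT::SpXAP5 for 6 of the 10 genes and lowest in prl1-2 for 6 of them. The highest genotype mean exceeded the lowest by 1.27-fold for EBF2 and by 2.03-fold for EBF1, with the other genes in between. In prl1-2 against Col-0 the log2 changes of the 10 genes ran from -0.69 to 0.43 with a median of -0.26, beside a median of -0.05 over all genes tested. For the XCT::SpXAP5 line against xct-1 they ran from -0.04 to 0.93 with a median of 0.45, beside -0.08 over all genes. In xct-2 against Col-0 they ran from -0.25 to 0.36 with a median of 0.06, beside -0.03 over all genes. The 2 comparisons with Col-0 share its libraries, and none of the individual values passed the test.

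**Figure D2:**
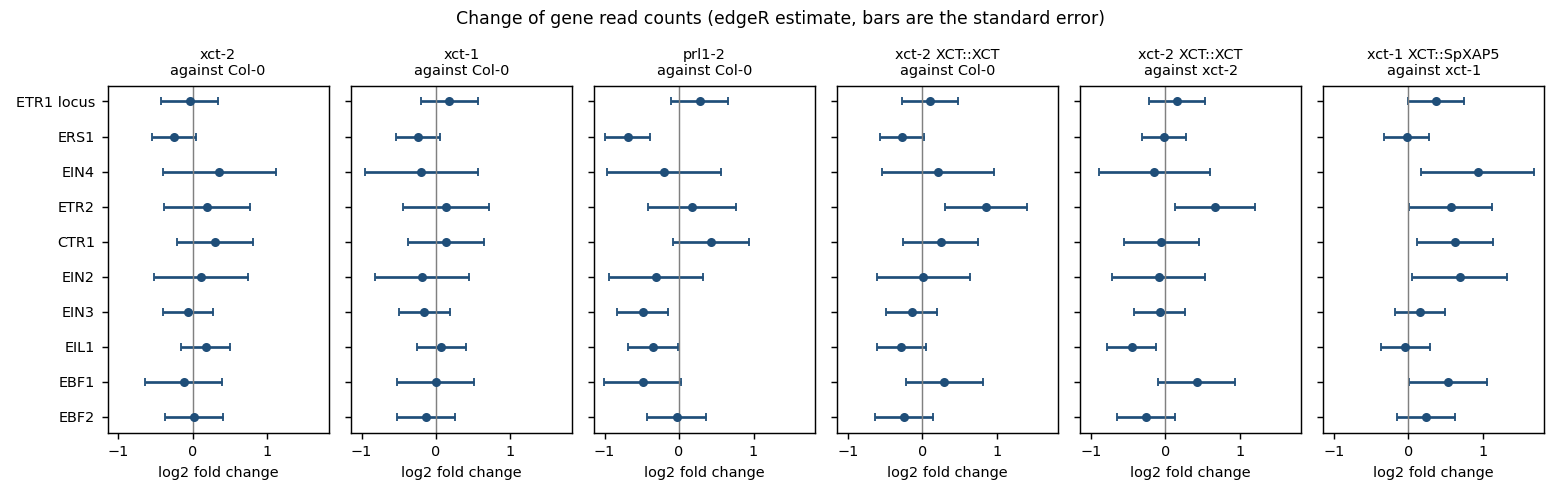
Log2 fold change of the gene read count of the 10 genes in 6 comparisons, with the edgeR estimate as a point and its standard error as a bar. No value passed an adjusted p of 0.05, and the standard errors run from 0.29 for ERS1 to 0.76 for EIN4.

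Junction usage differed at single introns of EBF2, of ERS1 and of the locus that merges ETR1 with AT1G66345. Junction usage, the reads on a junction as a share of the reads of its gene, could be tested for 35 junctions in 9 of the 10 genes, all but ETR2. In prl1-2 against Col-0 2 of the 35 junctions were called, both lower in prl1-2, while 9.45% of all 51714 junctions tested were called and 9.27% were called lower. In xct-2 against Col-0 1 junction was called, lower in xct-2, beside 2.46% of all junctions. In xct-2 XCT::XCT against xct-2 1 was called, higher in the transgenic line, beside 2.58%. None was called in xct-1 against Col-0 (1.06% of all junctions called), in xct-2 XCT::XCT against Col-0 (0.0058%) or in the XCT::SpXAP5 line against xct-1 (0.0%). The shares called among the 35 were thus near or below the background in each of these comparisons, and what follows concerns 3 single junctions. Of the 27 exon bins tested 0 were called in any comparison (edgeR), and 2 of their p-values were under 0.05 before adjustment, both in xct-2 against xct-1. Of all 32287 exon bins 0.0434% were called in xct-2, 0.0% in xct-1, 0.0898% in prl1-2 and 0.0% in xct-2 XCT::XCT against Col-0. The share was 0.0496% in the XCT::XCT line against xct-2, 0.0% in the XCT::SpXAP5 line against xct-1, 0.0124% in xct-2 against xct-1 and 0.124% in prl1-2 against xct-2.

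**Figure D3:**
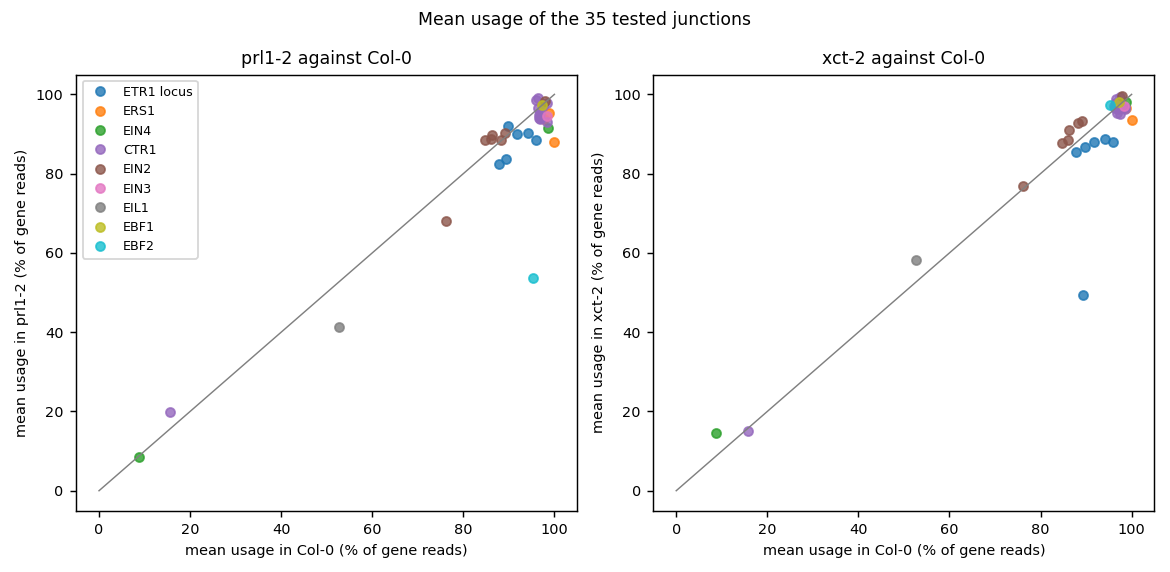
Mean usage of the 35 tested junctions, as a percent of the reads of the gene, in prl1-2 (left) and xct-2 (right) on the vertical axis against Col-0 on the horizontal axis, coloured by gene. Most points lie near the diagonal above 80%, the EBF2 junction lies at 53.8% in prl1-2 and 95.3% in Col-0, and a junction of the ETR1 locus lies at 49.4% in xct-2, with 89.4% in Col-0.

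The junction with the clearest difference was in EBF2, one of the 2 F-box genes that turn EIN3 and EIL1 over. EBF2 has 1 annotated intron, of 169 bases, on the minus strand of chromosome 5 at 8796689 to 8796857 (TAIR10), between exon bins of 163 bases on its 5′ side and 2437 bases on its 3′ side. In prl1-2 its junction was carried by 50 of 101, 72 of 122 and 57 of 108 reads of the gene, against 166 of 177, 71 of 76 and 150 of 152 reads in Col-0. Usage was therefore 49.5%, 59.0% and 52.8% in prl1-2, and 93.8%, 93.4% and 98.7% in Col-0. The prl1-2 libraries lay far below every other library of the series.

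Mean usage was 53.8% ± 4.83 in prl1-2 and 95.3% ± 2.94 in Col-0 (SD, n = 3 each). The log2 odds ratio was -4.19 (SE 0.494, edgeR adjusted p = 7.25e-05), and the junction was called under each of the 15 settings that could test it. The other genotypes stayed close to Col-0, with 94.6% ± 0.31 in xct-2 XCT::XCT, 97.4% ± 1.63 in xct-2, 97.1% ± 1.08 in xct-1 XCT::SpXAP5 and 95.2% ± 1.39 in xct-1. Against xct-2 the log2 odds ratio of prl1-2 was -4.97 (SE 0.51, edgeR adjusted p = 8.53e-07), so the 2 mutants differed at this intron. In prl1-2 against xct-2 2 of the 35 junctions were called, beside 9.65% of all junctions.

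Which reads lacked the EBF2 junction can be read from the exon bins. Every EBF2 read covered the 3′ bin, and 98, 117 and 101 reads also covered the 5′ bin in prl1-2, against 171, 71 and 151 in Col-0. Reads that covered both bins without the annotated junction numbered 48, 45 and 44 in prl1-2, against 5, 0 and 1 in Col-0. Usage of the 5′ bin was 95.5% ± 1.79 in prl1-2 and 96.5% ± 2.96 in Col-0, so the loss of junction reads was not accompanied by a loss of reads that reach the 5′ exon. No junction outside the annotation was listed for EBF2. The counts hold no bin for the intron itself, so whether those reads contain the intron was not measured.

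**Figure D4:**
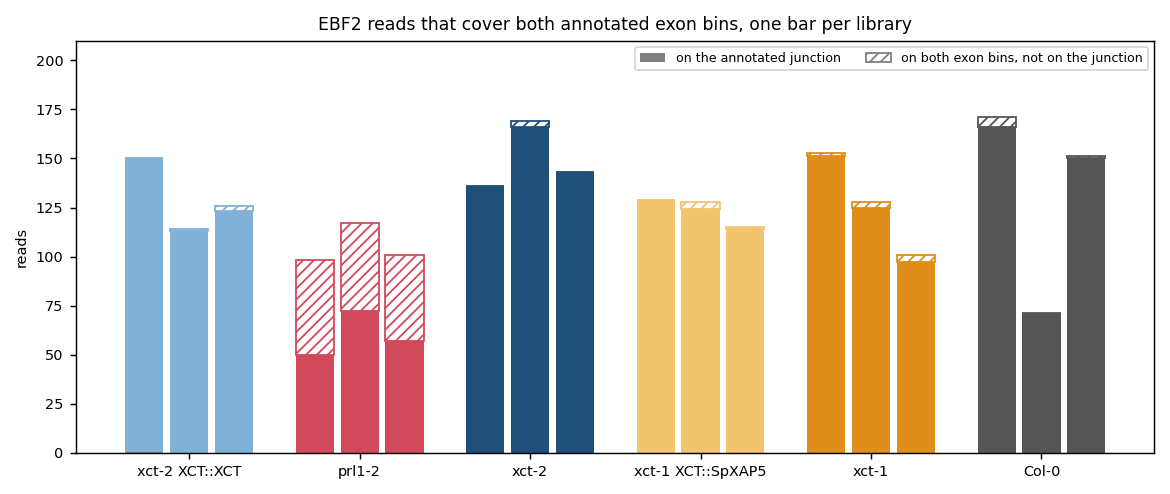
Number of EBF2 reads that cover both annotated exon bins, 1 bar per library and 3 bars per genotype, divided into reads on the annotated junction (filled) and reads without it (hatched). The hatched part is 44 to 48 reads in the 3 prl1-2 libraries and 0 to 5 in the Col-0 libraries.

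EBF1, the closest relative of EBF2, also has 1 annotated intron, of 371 bases, at 10849880 to 10850250 on the minus strand of chromosome 2. Its usage was 97.6%, 97.8% and 96.8% in prl1-2, against 97.2%, 96.1% and 98.4% in Col-0, and the libraries overlapped. With 337 to 754 gene reads per library in these 2 genotypes it was the best covered junction of the 10 genes. It was called in no comparison, and its smallest p was in xct-1 against Col-0, with 98.4% ± 1.12 in xct-1 and 97.2% ± 1.13 in Col-0 (edgeR adjusted p = 0.926).

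At the merged ETR1 locus junction 14, 1 of its 6 annotated junctions, was carried by 20 of 53, 25 of 51 and 24 of 39 reads in xct-2, against 47 of 55, 36 of 39 and 38 of 42 reads in Col-0. Usage was 37.7%, 49.0% and 61.5% in xct-2, and 85.5%, 92.3% and 90.5% in Col-0. In xct-2 XCT::XCT it was 91.7%, 90.2% and 82.6%. The xct-2 libraries were the 3 lowest of the 18, and the transgenic line overlapped Col-0.

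The mean was 49.4% ± 11.9 in xct-2 against 89.4% ± 3.55 in Col-0 (SD, n = 3 each), with a log2 odds ratio of -3.07 (SE 0.515, edgeR adjusted p = 0.000432). In xct-2 XCT::XCT against xct-2 it was 2.99 (SE 0.496, edgeR adjusted p = 0.000359), with a mean of 88.1% ± 4.85 in the transgenic line. Usage averaged 83.8% ± 7.24 in prl1-2, 84.2% ± 1.64 in xct-1 XCT::SpXAP5 and 86.0% ± 2.88 in xct-1, and the junction was called in none of these against its own control. No coordinates were given for the merged locus in the tables used here, and whether the junction lies in ETR1 or in AT1G66345 could not be told.

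At junction 14 the xct-1 libraries, at 89.1%, 85.7% and 83.3%, overlapped the Col-0 libraries and lay above those of xct-2. In xct-2 against xct-1 the log2 odds ratio was -2.69 (SE 0.493, edgeR adjusted p = 0.0230), the 1 call among the 35 junctions, beside 0.0928% of all junctions. That call was lost when any of the 3 xct-1 libraries was left out, with adjusted p-values of 0.284, 0.0551 and 0.0695 without replicates 1, 2 and 3. It was also lost without xct-2 replicate 1 (0.236) or replicate 2 (0.0967). In prl1-2 against xct-2 the log2 odds ratio was 2.39 (SE 0.494, edgeR adjusted p = 0.00315).

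The other 5 junctions of the ETR1 locus had means of 85.4% to 88.9% in xct-2 against 87.8% to 95.9% in Col-0, and none was called. Set against the other junctions of its locus (diffSpliceDGE) in place of the other reads, junction 14 was not called in any comparison. Its log2 change in xct-2 against Col-0 was then -0.70, a ratio of read counts that cannot be set beside the log2 odds ratio. No junction outside the annotation was listed at the locus, so a use of another splice site was not measured.

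ERS1 junction 7 is an intron of 90 bases on the minus strand of chromosome 2, at 17084807 to 17084896. Usage was 82.4%, 93.0% and 88.2% in prl1-2 and 94.4%, 92.2% and 94.1% in xct-2, against 100% in each of the 3 Col-0 libraries. It was also 100% in each library of xct-2 XCT::XCT. The prl1-2 and xct-2 libraries lay below those of Col-0 without overlap.

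For prl1-2 the mean was 87.9% ± 5.34 (SD, n = 3), with a log2 odds ratio of -5.65 (SE 1.37, edgeR adjusted p = 0.0159). For xct-2 it was 93.6% ± 1.22, with a log2 odds ratio of -4.90 (SE 1.38) that was not called (edgeR adjusted p = 0.0731). The reads behind these values were few, with 14 of 17, 40 of 43 and 15 of 17 in prl1-2, and 71 of 71, 44 of 44 and 33 of 33 in Col-0, so the size of the ratio rests on a control at the ceiling. Without Col-0 replicate 1 the call in prl1-2 was lost (adjusted p = 0.0692), and without prl1-2 replicate 1 or 2 the junction fell below the minimum of 20 reads for a test. The call was also lost with the gene count as an offset (log2 change -0.17) and with diffSpliceDGE (-0.06), each with an adjusted p of 1.0. Both log2 changes are ratios of read counts, not of odds, so their size cannot be set beside the log2 odds ratio.

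**Figure D5:**
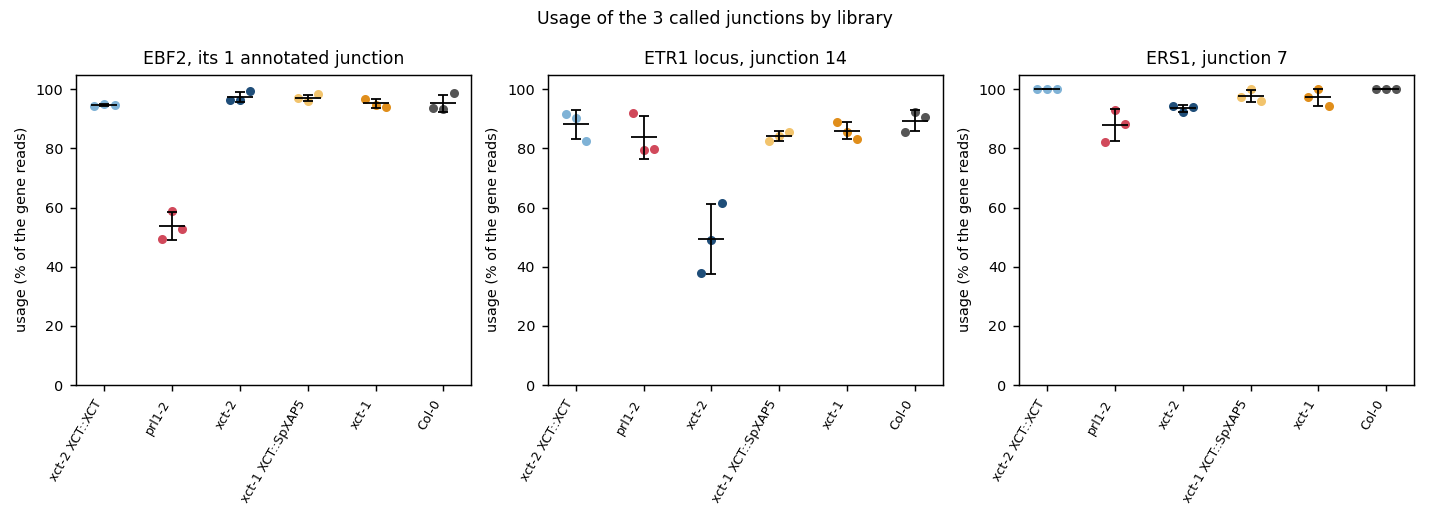
Usage of the EBF2 junction, junction 14 of the ETR1 locus and junction 7 of ERS1, as a percent of the gene reads, with 1 point per library and the mean and SD of the 3 libraries of each genotype. The EBF2 junction is low in prl1-2 alone (49.5% to 59.0%), that of the ETR1 locus in xct-2 alone (37.7% to 61.5%), and ERS1 is at 100% in Col-0 and xct-2 XCT::XCT.

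The remaining genes had no called junction, and the junction with the smallest p of each is given. In EIN4, junction 6 (89 bases, chromosome 3, 1236116 to 1236204, minus strand) was used at 90.2%, 94.7% and 89.9% in prl1-2, against 100%, 97.1% and 99.0% in Col-0. The libraries did not overlap, but the log2 odds ratio of -3.04 (SE 1.00) was not called (edgeR adjusted p = 0.0551). EIN4 junction 7, which belongs to the annotated isoform AT3G04580.2 alone, was used at 8.5% ± 3.15 in prl1-2 and 8.8% ± 6.60 in Col-0, with overlapping libraries.

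CTR1 had 13 tested junctions. Junction 31 (217 bases, chromosome 5, 978080 to 978296, minus strand) was used at 90.7%, 94.6% and 93.8% in prl1-2, against 98.2%, 98.3% and 98.9% in Col-0. These libraries did not overlap either, and the log2 odds ratio was -2.14 (SE 0.776, edgeR adjusted p = 0.0813). Junction 19, specific to the annotated isoform AT5G03730.2, had 19.9% ± 6.02 in prl1-2 and 15.7% ± 0.61 in Col-0, and was not called.

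The 7 junctions of EIN2 were used unequally in every genotype. In Col-0 mean usage was 76.2% at junction 9, the most upstream one (533 bases, chromosome 5, 787598 to 788130, plus strand), then 84.7%, 86.0%, 86.3%, 88.2% and 89.1%, and 98.0% at junction 15, the most downstream one. In prl1-2 it ran from 68.0% to 98.3% and in xct-2 from 76.8% to 99.6%, likewise with the lowest value at junction 9 and the highest at junction 15. Reads that end before the 5′ end of a transcript lack its upstream junctions, and usage as a share of all gene reads counts them against those junctions. Junction 9 was used at 65.1%, 74.2% and 64.8% in prl1-2, against 77.0%, 67.3% and 84.3% in Col-0, with overlapping libraries and an edgeR adjusted p of 0.273.

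EIN3 junction 3 (508 bases, chromosome 3, 7262595 to 7263102, minus strand) was used at 96.7%, 95.6% and 91.1% in prl1-2, against 97.7%, 97.3% and 100% in Col-0. The libraries did not overlap, and the edgeR adjusted p was 0.135. EIL1 junction 3 (275 bases, chromosome 2, 11545993 to 11546267, plus strand) was present in 50%, 42.6% and 31.1% of the reads in prl1-2, against 59.7%, 64.3% and 50.9% in xct-2 and 58.7%, 49.1% and 50% in Col-0. The smallest p was in prl1-2 against xct-2, where the log2 odds ratio was -1.07 (SE 0.409, edgeR adjusted p = 0.0989). With junction reads per gene read as a covariate it was -1.15 and was called (edgeR adjusted p = 0.0364).

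A second denominator, chosen after these values were seen, counted for each junction only the reads on the less covered of its 2 flanking exon bins, so that reads ending before the junction were left out. It could be applied to 21 of the junctions, none of them in the ETR1 locus, which has no coordinates. In prl1-2 against Col-0 9 of the 21 were called, all lower, while 34.8% of all junctions tested this way were called. They were the EBF2 junction, ERS1 junction 7, EIN4 junction 6, EIN3 junction 3, EIL1 junction 3, and a pair each in EIN2 (junctions 9 and 13) and CTR1 (junctions 20 and 31).

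On this scale EIN2 junction 9 was spliced in 82.0%, 92.0% and 90.5% of the reads that reach it in prl1-2, against 100%, 100% and 97.1% in Col-0, with a log2 odds ratio of -2.86 (SE 0.59, edgeR adjusted p = 5.48e-05). EIL1 junction 3 was spliced in 59.1%, 61.7% and 43.8% in prl1-2, against 83.1%, 79.4% and 69.7% in Col-0, with a log2 odds ratio of -1.57 (SE 0.53, edgeR adjusted p = 0.0149). EIN3 junction 3 was at 96.7%, 98.5% and 94.8% in prl1-2 and at 100% in each Col-0 library (edgeR adjusted p = 0.000793). In all 3 cases the prl1-2 libraries lay below the Col-0 libraries. For EIN3 the log2 odds ratio of -5.65 (SE 1.40) rests on a control at the ceiling. Other genotypes were also lower than Col-0 there, with -3.87 (SE 1.64) in xct-2 XCT::XCT, -3.22 (SE 1.74) in xct-2 and -2.04 (SE 1.85) in xct-1. None of these was called. In prl1-2 against xct-2 it was -2.43 (SE 0.92) and was called (edgeR adjusted p = 0.0337). The EBF2 junction stood at 51.0%, 61.5% and 56.4% in prl1-2, against 97.1%, 100% and 99.3% in Col-0.

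In xct-2 against Col-0 the flanking bins gave 1 call among the 21, ERS1 junction 7 (log2 odds ratio -4.91, SE 1.46, edgeR adjusted p = 0.0263), beside 4.61% of all junctions. In xct-2 XCT::XCT against xct-2 the same junction was called in the other direction (4.55, SE 1.38, edgeR adjusted p = 0.0307), beside 4.63%. In xct-1 against Col-0, xct-2 XCT::XCT against Col-0 and the XCT::SpXAP5 line against xct-1 0 of the 21 were called (edgeR), beside 1.2%, 0.0475% and 0.0267% of all junctions. In xct-2 against xct-1 0 were called, beside 0.639%, and in prl1-2 against xct-2 6 were called, beside 29.9%. ERS1 junction 7 was also lower in xct-1 against Col-0, with a log2 odds ratio of -2.93 (SE 1.77) that was not called. For the XCT::SpXAP5 line against xct-1 its log2 odds ratio was -0.35 (SE 1.57).

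The authors' deposited table for prl1-2 against Col-0 gives an adjusted p for 64 of the 83 features of the 9 separately counted genes, and for 5 of them it is under 0.05. They are the EBF2 junction (adjusted p = 1.15e-16), ERS1 junctions 7 and 9 (0.00457 and 0.0116), EIN4 junction 6 (0.0147) and CTR1 junction 31 (0.0442). The authors' deposited tables for the other 4 comparisons list none of these genes' features under 0.05. Those tables hold no row for the merged ETR1 locus. The share of all their features under 0.05 is not given here, so these counts do not set the 9 genes apart from other genes.

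Of 47 further genes of ethylene synthesis, perception and response, 18 were expressed highly enough to be tested. None of the 18 was called at the gene level in xct-2, xct-1, prl1-2 or xct-2 XCT::XCT against Col-0. In that order 7, 3, 2 and 4 of them had unadjusted p-values under 0.05 (edgeR), beside 4.6%, 1.4%, 5.9% and 1.9% of all genes. In prl1-2 against xct-2 5 of the 18 were called, beside 0.805% of all genes, all 5 lower in prl1-2, and 4 of them are ethylene-response transcription factors. The AP2/B3 factor EDF4 had 8.83, 16.5 and 18 CPM in prl1-2, against 79.6, 134 and 71.6 CPM in xct-2 and 34.2, 41.0 and 63.7 CPM in Col-0. Its log2 change against xct-2 was -2.67 (SE 0.41, edgeR adjusted p = 0.00284), and the prl1-2 libraries lay below all others of the 3 genotypes.

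Its relative EDF1 had 4.42, 7.72 and 9.0 CPM in prl1-2, against 37.9, 89.9 and 31.3 CPM in xct-2 and 18.5, 14.1 and 28.5 CPM in Col-0 (log2 change against xct-2 -2.85, SE 0.46, edgeR adjusted p = 0.00424). The repressor ERF4 (log2 change -3.38, edgeR adjusted p = 0.0285), the ethylene synthesis gene ACS6 (-2.60, edgeR adjusted p = 0.0463) and the factor ERF104 (-3.27, edgeR adjusted p = 0.0465) were also lower in prl1-2 than in xct-2. In prl1-2, Col-0 and xct-2 the means were 2.69, 6.25 and 29.9 CPM for ERF4 and 8.45, 16.2 and 49.3 CPM for ACS6. For ERF104 they were 3.00, 6.46 and 28.1 CPM. The prl1-2 levels of these genes were near the floor, which limits the sizes of the log2 changes. The least covered of the 18 libraries held 1 read of ERF4 and 1 of ERF104. For EDF1, EDF4 and ACS6 it held 2, 4 and 5 reads. In xct-2 XCT::XCT the means of ERF4, ACS6 and ERF104 were 23.4, 68.0 and 13.9 CPM. For each of them replicate 2 was the highest xct-2 library. The calls of these 3 were each lost when any 1 of several libraries was left out. Without any of the 3 prl1-2 libraries or without xct-2 replicate 2 all 3 calls were lost, with adjusted p-values of 0.0916 to 0.184 for ERF4, 0.0967 to 0.230 for ACS6 and 0.0967 to 0.302 for ERF104. Without xct-2 replicate 1 those of ACS6 and ERF104 were lost too, each with an adjusted p of 0.0551.

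Markers of green shoot and root were compared between the same genotypes. The summed level of the 3 green-shoot markers was 3302, 6233 and 9194 CPM in prl1-2, against 2649, 4242 and 2115 CPM in xct-2, with overlapping libraries. That of the root markers PYK10 and PIN2 was 839, 1245 and 891 CPM in prl1-2, against 1158, 1543 and 1421 CPM in xct-2 and 2146, 2507 and 1250 CPM in Col-0, and the prl1-2 and xct-2 libraries overlapped. That sum is almost all PYK10, whose mean in prl1-2 was 967 CPM beside 25.2 CPM for PIN2. The 2 root markers went opposite ways. In prl1-2 the log2 change of PYK10 was -0.49 against xct-2 and -1.01 against Col-0. That of PIN2 was 0.49 and 0.25. RBCS1A, a small subunit of Rubisco, had the smallest p of the 5 in prl1-2 against xct-2, with a log2 change of 1.96 (SE 0.53, edgeR adjusted p = 0.110), and none of the 5 was called. The part of tissue proportions in the 5 calls was not tested.

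Of the 55 tested junctions of these genes, 11 in 4 genes were called in prl1-2 against Col-0, all lower, beside 9.27% of all junctions called lower. Of the 11, 7 belonged to EIN5, the exoribonuclease XRN4 that degrades mRNA from its 5′ end and limits EBF1 and EBF2 transcripts. EIN5 junction 36 was used at 93.7%, 92.0% and 90.2% in prl1-2, against 99.5%, 98.5% and 98.7% in Col-0 (log2 odds ratio -2.91, SE 0.53, edgeR adjusted p = 0.00219). ETO1, which targets ACC synthases for degradation, had junction 8 at 88.5%, 90.9% and 87.3% in prl1-2, against 97.7%, 100% and 97.8% in Col-0 (edgeR adjusted p = 0.00258). In both genes the prl1-2 libraries lay below all Col-0 libraries. Both calls were lost with the gene count as an offset (log2 changes of -0.11 and -0.15) and with diffSpliceDGE (-0.07 and -0.06), each with an adjusted p of 1.0. These log2 changes are ratios of read counts, not of odds, so their size cannot be set beside a log2 odds ratio.

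Junction 8 of the ETO1-like gene EOL2 was used at 51.5%, 31.7% and 51.5% in prl1-2, against 76.3%, 64.9% and 83.5% in Col-0 (edgeR adjusted p = 0.0163). That call was lost without Col-0 replicate 1 (adjusted p = 0.0522), Col-0 replicate 3 (0.0757) or prl1-2 replicate 2 (0.0814), and with diffSpliceDGE (1.0). Junction 6 of ACS6 was used at 60.0%, 83.3% and 50% in prl1-2, against 100% in each Col-0 library (edgeR adjusted p = 0.0243). ACS6 was sparsely covered, with 11.0, 6.62 and 7.70 CPM in prl1-2 and 12.9, 7.03 and 28.5 CPM in Col-0. The least covered library of the series held 5 ACS6 reads. The prl1-2 percentages therefore rest on very few reads, and they are set against a control at the ceiling. The ACS6 call was lost without Col-0 replicate 1 (0.0751) or 3 (0.0665) and without prl1-2 replicate 1 (0.0637) or 3 (0.107). It was also lost with DESeq2 (adjusted p = 0.0532), and with the gene count as an offset or diffSpliceDGE (1.0 each).

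In xct-2 against Col-0 2 of the 55 junctions were called, a share near the 2.46% of all junctions, both in ETO1 and both ending at the same 5′ splice site. Their 3′ sites lie 6 bases apart, at 19203993 and 19203999 on the minus strand of chromosome 3. Junction 10, which uses the site farther downstream, was used at 42.7%, 30.2% and 39.8% in xct-2, against 19.2%, 19.5% and 16.6% in Col-0, and at 17.5%, 17.2% and 19.4% in xct-2 XCT::XCT. Junction 11 was used at 51.7%, 55.8% and 56.4% in xct-2, against 75.7%, 72.4% and 79.6% in Col-0, and at 80.6%, 76.6% and 74.3% in xct-2 XCT::XCT. The xct-2 libraries stood apart from Col-0 and xct-2 XCT::XCT at each site.

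The libraries of xct-1, xct-1 XCT::SpXAP5 and prl1-2 also lay outside the Col-0 range at 1 or both of these junctions. Junction 10 was used at 28.4%, 32.0% and 34.3% in xct-1, which overlapped xct-2 and lay above Col-0, with a log2 odds ratio of 1.04 against Col-0 that was not called (edgeR adjusted p = 0.247). Junction 11 was used at 64.8%, 59.8% and 59.5% in xct-1, below Col-0 (log2 odds ratio -1.02, edgeR adjusted p = 0.257). In xct-1 XCT::SpXAP5 mean usage was 31.3% at junction 10 and 63.3% at junction 11. In prl1-2 junction 11 was used at 66.1%, 65.3% and 62.4%, below Col-0 (edgeR adjusted p = 0.105), and junction 10 averaged 18.1%. In xct-2 against xct-1 neither junction was called, with log2 odds ratios of 0.41 and -0.41.

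The log2 odds ratios in xct-2 against Col-0 were 1.45 (SE 0.33, edgeR adjusted p = 0.0106) and -1.42 (SE 0.32, edgeR adjusted p = 0.0108). In xct-2 XCT::XCT against xct-2 they were -1.47 (edgeR adjusted p = 0.00665) and 1.49 (edgeR adjusted p = 0.00518). Each junction was called under 12 of 17 settings in xct-2 against Col-0, and under 15 of 17 in xct-2 XCT::XCT against xct-2. Without Col-0 replicate 3 or xct-2 replicate 1 both calls against Col-0 were lost, with adjusted p-values of 0.0517 and 0.0912 for junction 10 and 0.0639 and 0.0725 for junction 11. Junction 10 was also lost without xct-2 replicate 3 (0.0598), and against xct-2 XCT::XCT it was lost without xct-2 replicate 1 (0.0687). With the 6 compared libraries alone both calls against Col-0 were lost (0.132 for junction 10 and 0.115 for junction 11), and diffSpliceDGE called neither junction in either comparison. With flanking exon bins junction 11 was not called, at -1.06 in xct-2 against Col-0 (edgeR adjusted p = 0.474) and 0.61 in xct-2 XCT::XCT against xct-2 (edgeR adjusted p = 0.775).

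A further junction, EIN5 junction 26, was called in xct-2 XCT::XCT against xct-2, which made 3 of the 55 beside 2.58% of all junctions. It was used at 97.7%, 97.8% and 98.0% in xct-2 XCT::XCT, against 91.0%, 92.1% and 94.4% in xct-2 (edgeR adjusted p = 0.0447). The call was lost with DESeq2 (adjusted p = 0.158), with a minimum of 10 reads (0.0574), with the gene count as an offset, with diffSpliceDGE and without any 1 of the 6 libraries compared. In prl1-2 against xct-2 13 of the 55, in EIN5, ETO1, EOL2 and ACS6, were called, all lower, beside 9.65% of all junctions. None of the 55 junctions was called in xct-1 against Col-0, xct-2 XCT::XCT against Col-0 or the XCT::SpXAP5 line against xct-1.

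The gene most like each of the 10 in its level across the 18 libraries was named by the highest Pearson correlation of log2 CPM. For EIN2 this was NOXY38 (r = 0.99), for EIN4 AT1G67580 (0.99), for EBF1 POK1 (0.98) and for CTR1 AT3G26730 (0.97). It was AT2G43800 for EIN3 (0.92), SUVH1 for the ETR1 locus (0.91), AT3G19515 for EBF2 (0.90), EXO70E2 for ETR2 (0.88), ATB' ALPHA for ERS1 (0.84) and emb2004 for EIL1 (0.81). These coefficients describe 18 libraries that also differ in junction reads per gene read, as given above for EIN4. The log2 CPM of EIN2, EBF1, EIN4 and CTR1 correlated with that property at r = 0.98, 0.96, 0.94 and 0.88. Their most like genes, in the same order, correlated with it at 0.97, 0.98, 0.93 and 0.84. For ERS1 that correlation was 0.10 and for EIL1 it was -0.38.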

How the data were processed

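Per the labels, total RNA of whole seedlings was sequenced on a PacBio Sequel II, and the submitters' processing notes name minimap2 2.17 and TAIR10. The authors deposited raw read counts per gene, exon bin and junction for each of 18 libraries. They also deposited comparison tables, which per the file headers hold columns for a p-value, its adjusted form and a log2 ratio, filled for some of the features; the size of the ratio was not used. Which program counted the reads is not given in the sources used here. Coordinates are those of these tables, written from 1. Symbols came from a RefSeq gene table used for names only.

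Gene counts were tested with edgeR 4.0.16 (R 4.3.3, TMM, default filter, 18 libraries). Usage was tested in edgeR on 2 counts per feature and library, feature reads and other gene reads (0 where a junction exceeded its gene), with a minimum of 20 reads on either side, and with library terms and a usage effect for every genotype. The log2 usage change is a log2 odds ratio, except with the gene count as an offset or with diffSpliceDGE, where it is a log2 ratio of counts. Standard errors are the change over the square root of F. P-values were Benjamini-Hochberg adjusted per comparison over all features of a kind, and a feature was called under 0.05. The procedure was tested on simulated data. DESeq2 1.42.0 was an alternative.

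The 10 genes, the lists of other genes and the tests were chosen with earlier results of these data known. All 10 genes are named, with each junction called in a comparison, or else the tested junction with the smallest p. Of the other genes, those called are named, with the called junction of smallest adjusted p per gene. EIN4 junction 7, CTR1 junction 19 and the ETO1 pair were named after their values were seen. The comparisons xct-2 against xct-1 and prl1-2 against xct-2 were added after seeing the data.

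Replicate numbers shared by the labels were checked on deviations from group means. Every same-number correlation was over 0.1 in xct-2 against xct-1 (0.490 to 0.903) and in prl1-2 against xct-2 (0.244 to 0.795), which were taken as paired by this check alone. The other 6 comparisons were not. Values in the report come from fits without a replicate block, also for the 2 paired comparisons, unless a block is named. With the block the ETR1 locus junction had an edgeR adjusted p of 0.0304 in xct-2 against xct-1. In prl1-2 against xct-2 it had 0.00435 and the EBF2 junction had 4.37e-07 (edgeR). Sequences were not used here.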

Additional observations from a re-analysis of the deposited data

Results flagged for a closer look

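At 2 junctions the effect of 1 mutation differed from that of another, by a direct comparison of the 2 mutants. Junction 14 of the ETR1 locus differed between the 2 xct alleles, with a log2 odds ratio of -2.69 in xct-2 against xct-1 (edgeR adjusted p = 0.0230, lost without any 1 of 5 libraries). It also differed between prl1-2 and xct-2, with a log2 odds ratio of 2.39 (edgeR adjusted p = 0.00315), higher in prl1-2. The EBF2 junction differed between prl1-2 and xct-2, with a log2 odds ratio of -4.97 (edgeR adjusted p = 8.53e-07), lower in prl1-2 in 3 of 3 libraries.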

How the results depend on the processing

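Counts of called junctions depended on the denominator. In prl1-2 against Col-0 2 of the 35 were called, beside 9.45% of all junctions. There was 1 with a minimum of 50 reads, with the gene count as an offset or with the 6 compared libraries alone. With junction reads per gene read as a covariate there were 4 (EIN4 junction 6 and CTR1 junction 31 added). Leaving out 1 library gave 1 to 2. Flanking exon bins could test 21 junctions and called 9 of them, beside 34.8% of all junctions tested that way. With diffSpliceDGE 0 were called in any comparison, and EBF2, with a single junction, could not be tested that way. In xct-2 against Col-0 and in xct-2 XCT::XCT against xct-2 1 was called, and 2 with the covariate. In xct-2 against xct-1 the call was lost with 6 libraries (0 called), and leaving out 1 library gave 0 to 1. Flanking bins could not test the ETR1 locus junction called there, and gave 0 calls among the 21 junctions they could test. In prl1-2 against xct-2 2 of the 35 were called, beside 9.65% of all junctions, and 6 of the 21 with flanking bins, beside 29.9%. DESeq2 and a minimum of 10 reads changed no count by over 1.5 times. Shares of all junctions called under the other settings are not given here, so those counts describe the settings and not the 10 genes.

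Of 956 log2 changes of the 10 genes under alternatives, 146 had the other sign and 1 was called (CTR1, with block and covariate, which made 1 called gene in prl1-2 against Col-0). With the replicate block alone the EBF2 junction had a log2 odds ratio of -4.21 in prl1-2 against Col-0, the ETR1 locus junction -3.07 in xct-2 against Col-0, and the block changed no call named in the report. In the comparisons not taken as paired the number is only a number. Fits with 6 libraries lost the calls of EDF4 (edgeR adjusted p = 0.0728), EDF1 (0.107), ERF4 (0.0859) and ACS6 (0.199). Reads on junctions that share a splice site gave no value for EBF2. Counts of 14 to 43 ERS1 reads per prl1-2 library limit that junction.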
